A study of Mus musculus with 6 samples.

Results

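The small leucine-rich proteoglycans are secreted matrix proteins that coat collagen fibrils. Transcripts of 9 of them (Dcn, Bgn, Lum, Fmod, Ogn, Prelp, Aspn, Omd and Podn) were examined in mouse RPE-choroid. The genes were chosen by family membership, with earlier results of these data known. Their symbols were matched to the Ensembl identifiers in the count tables. All 9 were among the 15663 genes listed, and all 9 were among the 13454 genes with enough reads to be tested (more than 50 counts in at least 2 libraries).

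RPE-choroid is the retinal pigment epithelium with the underlying vascular choroid, and its connective tissue borders the sclera. RNA was sequenced from 3 control mice, which were healthy and untreated, and from 3 mice with laser-induced subretinal fibrosis (SRF), all of strain C57BL/6 in the labels. The study's methods name the substrain C57BL/6J and describe young males. In the SRF mice, 4 laser burns were placed in each eye, every lesion was burned again 10 days later, and RNA was taken 20 days after the second laser. Each library came from a separate mouse. The RNA was taken from the RPE-choroid and not from dissected lesions, so lesion and surrounding tissue were measured together. Library totals were 13667310 to 24356023 counts on listed genes. The 10 RPE markers examined, among them Rpe65 and Best1, were read in every library, with a summed level of 29810 to 53030 CPM, counts scaled to a common library size. Photoreceptor RNA was uneven, and the summed level of 18 photoreceptor markers was 13220 CPM in control mouse 1 and 12800 CPM in SRF mouse 3, against 758 to 1826 CPM in the other 4 libraries.

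The core proteins of the family are built from repeats rich in leucine and bind to collagen fibrils, where they influence fibril thickness and spacing. Many carry sulfated sugar chains, chondroitin or dermatan sulfate in decorin (Dcn) and biglycan (Bgn), keratan sulfate in lumican (Lum) and fibromodulin (Fmod). Several also bind transforming growth factor beta, and biglycan released from matrix is known as a ligand of Toll-like receptors. In the eye the family is best known from the collagenous stroma of cornea and sclera, and its members are made mainly by fibroblasts and related cells.

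Most of the genes lie in a few neighbourhoods of the genome (GRCm38, GENCODE M21). Dcn (chr10:97479609-97518143) and Lum (chr10:97565128-97572703) are neighbours on the forward strand, with 46984 bases between them. Aspn (chr13:49544443-49567565), Omd (chr13:49582462-49592822) and Ogn (chr13:49608046-49624501) follow each other on the forward strand with gaps of 14896 and 15223 bases. Prelp (chr1:133910304-133921414, reverse strand) and Fmod (chr1:134037254-134048277, forward strand) are 115839 bases apart. No other protein-coding gene lies wholly within any of these gaps. Bgn (chrX:73483602-73495933, forward strand) and Podn (chr4:108014791-108096445, reverse strand) stand alone. Reads of overlapping genes cannot be told apart without strand information, and whether the counting used strand is not given in the sources used here. Aspn, Omd and Ogn lie inside the span of Cenpp on the opposite strand, and Cenpp was at 0.84 to 1.95 CPM in the 6 libraries. An exon of Prelp overlaps the antisense gene Gm15851, which is not in the count tables. Podn overlaps Scp2 on the same strand without sharing an exon.

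Promoter sequences from RefSeq (GRCm38.p6) matched 7 of the 9 genes, all but Dcn and Lum. Bgn and Podn are shown because they were the 2 members whose SRF libraries all lay above the control libraries, and Omd because its level varied most among control mice. Each line gives the 250 bases before the transcription start, 5′ to 3′ on the strand of the gene, for Bgn at chrX:73483351-73483600 (forward strand), for the more upstream of 2 Podn starts at chr4:108031955-108032204 (reverse strand) and for Omd at chr13:49582212-49582461 (forward strand). The GENCODE span of Podn begins further upstream, at chr4 position 108096445, so the Podn window shown lies inside that span. Capitals mark the GC box, the binding motif of Sp1, searched as GGGCGG on both strands, so that it reads CCGCCC where it lies on the opposite strand.
Bgn: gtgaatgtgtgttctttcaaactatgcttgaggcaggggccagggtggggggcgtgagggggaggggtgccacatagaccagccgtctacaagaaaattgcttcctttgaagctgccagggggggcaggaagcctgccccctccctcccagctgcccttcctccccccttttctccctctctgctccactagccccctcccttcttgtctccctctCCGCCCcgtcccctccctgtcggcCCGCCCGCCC
Podn: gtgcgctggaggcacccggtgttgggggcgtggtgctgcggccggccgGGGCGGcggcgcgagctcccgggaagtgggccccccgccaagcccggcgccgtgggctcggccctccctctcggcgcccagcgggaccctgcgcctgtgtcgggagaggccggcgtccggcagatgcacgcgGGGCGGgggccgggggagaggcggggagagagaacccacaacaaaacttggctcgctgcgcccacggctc
Omd: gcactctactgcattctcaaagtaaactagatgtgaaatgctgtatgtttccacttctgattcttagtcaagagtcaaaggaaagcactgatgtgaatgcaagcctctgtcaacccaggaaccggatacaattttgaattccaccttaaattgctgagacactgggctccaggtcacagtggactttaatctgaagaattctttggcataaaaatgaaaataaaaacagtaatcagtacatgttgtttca
The Bgn promoter held 3 matches, which began 34, 10 and 6 bases before the start, the last 2 of them overlapping. The Podn promoter held 2, at 202 and 70 bases before the start. None was found in the second Podn promoter or in those of Omd, Aspn, Ogn, Fmod and Prelp. Of 32851 mouse promoters of this length, 32.7% held at least 1 match. A link between these matches and the transcript levels was not tested. G and C made up 64.4% of the bases in the Bgn promoter, 78.0% in the Podn promoter shown and 64.0% in the second Podn promoter. The share was 38.4% in Omd, 30.0% in Aspn, 42.0% in Ogn, 51.2% in Fmod and 55.6% in Prelp (median of the 32851 promoters 52.4%). Besides this motif, 8 letter strings were searched in the same windows, on both strands, and none of them matched in Bgn or Podn. TATAAA (12.4% of promoters) was found in Aspn and Ogn, CCAAT (33.9%) in Aspn and Prelp, CAGAC (42.2%) in Fmod and Prelp, and GGAATG (12.6%) in Ogn. No match in these windows was found for TGANTCA (the AP-1 motif, in 6.75% of promoters), for GTCTAGAC (a palindrome bound by Smad proteins, 0.167%), for CACGTG (an E-box, 6.02%) or for TAAAAATA (a form of the MEF2 motif, 2.45%).

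Levels were compared between genes on the FPKM scale, which divides by transcript length. Decorin was by far the most abundant of the 9 transcripts. Its level was 1472, 1789 and 3551 FPKM in control mice 1, 2 and 3, and 2137, 2682 and 4162 FPKM in SRF mice 1, 2 and 3. Dcn made up 69.1% to 76.0% of the summed FPKM of the 9 genes in each library. Together the 9 genes took between 0.395% of the counts, in control mouse 1, and 1.09%, in SRF mouse 3.

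By mean FPKM over the 6 libraries the order was Dcn (2632), Bgn (283), Fmod (235), Lum (186), Ogn (98.9), Prelp (97.7), Aspn (36.7), Omd (17.2) and Podn (2.58). Each of the 8 pairs of neighbours in this order was compared within libraries. Dcn exceeded Bgn in 6 of 6 libraries, by a median of 8.20-fold. Lum exceeded Ogn (1.84-fold), Prelp exceeded Aspn (2.39-fold), Aspn exceeded Omd (2.77-fold) and Omd exceeded Podn (5.56-fold), also in 6 of 6 libraries each. The other 3 pairs changed places between libraries, and Bgn exceeded Fmod in 4 of 6 libraries, Fmod exceeded Lum in 5 of 6 and Ogn exceeded Prelp in 4 of 6. These counts describe the order and do not test it, since the pairs were ranked on the same libraries. Without control mouse 1, 2 or 3 or SRF mouse 1, Prelp came ahead of Ogn and the other 7 genes kept their places. The place of Bgn depended on the gene length used as well. When normalised counts were divided by the length of all annotated exons, Bgn fell behind Fmod and Lum, and the other 6 genes kept their places.

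**Figure D1:**
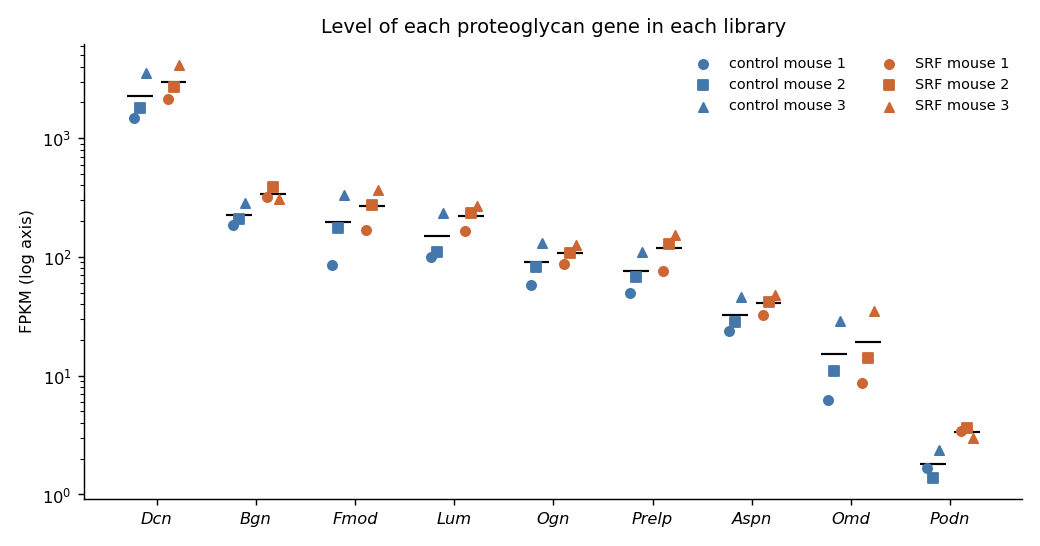
FPKM of each gene in each library on a log axis, with genes in order of mean level. Circles, squares and triangles are mice 1, 2 and 3 of a group, and the black bar is the mean of the 3 mice. Control and SRF points overlap for 7 genes and are apart for Bgn and Podn.

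The comparison of SRF with control mice asked whether transcripts of these matrix proteins change in the fibrotic RPE-choroid. A gene was called when its adjusted p was under 0.05 and its change reached 0.5 on the log2 scale, and none of the 9 genes met this. With edgeR 0 of 9 were called, where 0% of all tested genes were called in the same direction. DESeq2 and limma-voom also called 0 of 9, where DESeq2 called 0.803% of tested genes higher and 0.334% lower in SRF. At an unadjusted edgeR p under 0.05 there were 2 of 9, Bgn and Podn, both with the higher mean in SRF, against 4.16% of tested genes in that direction. The same 2 genes were those in which every SRF library lay above every control library, against 6.71% of tested genes. All 9 estimates were above 0, with a median log2 fold change of 0.40, while the median over all tested genes was 0.00 and 50.3% of them were above 0. The median of the members rested on single mice, at 0.12 without control mouse 1, 0.13 without SRF mouse 3 and 0.98 without control mouse 3. It was -0.07 with the fibroblast marker level as a covariate. That level itself tended to be higher in SRF, so this fit cannot separate it from the group difference. Without control mouse 1 the estimates of Ogn and Omd were below 0. A change in bulk RNA can come from a different number of cells of a type or from a different amount of RNA per cell, and these cannot be told apart.

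Decorin, biglycan and asporin form the class of the family to which the best known collagen-binding members belong. Bgn was at 459, 521 and 694 CPM in control mice 1, 2 and 3, and at 764, 926 and 738 CPM in SRF mice 1, 2 and 3. The lowest SRF library lay above the highest control library, by a small margin between SRF mouse 3 and control mouse 3. The means were 558 ± 122 CPM in control and 809.5 ± 102 CPM in SRF (SD, n = 3 each). The log2 fold change was 0.54 with a standard error of 0.18, and the edgeR adjusted p was 0.573 (0.233 with DESeq2). It was not past 0.05 unadjusted without control mouse 1, without control mouse 2 or without SRF mouse 2, where the log2 fold change was 0.42, 0.49 and 0.43.

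Dcn was at 2634, 3223 and 6346 CPM in the control mice and at 3712, 4606 and 7261 CPM in the SRF mice. The groups overlapped, and control mouse 3 lay above SRF mice 1 and 2. The mean was 4068 ± 1995 CPM in control and 5193 ± 1846 CPM in SRF (SD, n = 3 each), a log2 fold change of 0.35 with a standard error of 0.38 (edgeR adjusted p = 0.981). The estimate was 0.83 without control mouse 3, 0.12 without control mouse 1 and 0.03 without SRF mouse 3. Aspn, asporin, was at 55.6, 67.2 and 108 CPM in control and at 73.6, 94.5 and 110.3 CPM in SRF. Its groups overlapped in the same way, and the log2 fold change was 0.27 (standard error 0.27, edgeR adjusted p = 0.971, from 0.08 without control mouse 1 to 0.59 without control mouse 3).

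Lumican, fibromodulin, Prelp and osteomodulin (Omd) belong to another class of the family, in which several members can carry keratan sulfate. Prelp, which also binds basement membrane heparan sulfate proteoglycan, was at 184, 249 and 404 CPM in control and at 274, 456 and 548 CPM in SRF. Control mouse 3 lay between SRF mice 1 and 2. The log2 fold change was 0.61 with a standard error of 0.35 (edgeR adjusted p = 0.849), from 0.39 without control mouse 1 or SRF mouse 3 to 0.98 without control mouse 3. Lum, needed for corneal transparency, was at 251, 278 and 586 CPM in control and at 399, 559.7 and 657 CPM in SRF. Control mouse 3 again exceeded SRF mice 1 and 2, and the log2 fold change was 0.53 with a standard error of 0.35 (edgeR adjusted p = 0.893), from 0.32 without control mouse 1 to 1.02 without control mouse 3.

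Fmod, which binds the same region of collagen as lumican, was at 271, 562 and 1061 CPM in control and at 522, 838 and 1140 CPM in SRF. The 3 control mice spanned 3.92-fold, wider than the distance between the group means of 631 ± 400 and 833 ± 309 CPM (SD, n = 3 each). Its log2 fold change was 0.40 with a standard error of 0.50, from 0.04 without control mouse 1 to 1.0 without control mouse 3. Omd, known from bone matrix, was at 10.7, 19.0 and 46.7 CPM in control and at 16.1, 23.0 and 55.5 CPM in SRF. Its control mice spanned 4.35-fold, the widest of the 9 genes, and its log2 fold change of 0.30 had a standard error of 0.63. Without SRF mouse 3 the Omd estimate fell below 0, to -0.39, and without control mouse 1 it was -0.06.

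Osteoglycin (Ogn), also called mimecan, was at 151, 216 and 345 CPM in control and at 220, 271 and 323 CPM in SRF. Control mouse 3 was the highest of the 6 libraries. The log2 fold change of 0.19 was the smallest of the 9 genes (standard error 0.30, edgeR adjusted p = 1.0), and it was -0.05 without control mouse 1.

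Podocan (Podn), of a separate class, was first described in the glomerulus of the kidney. It was the least abundant member, with counts of 67, 75 and 176 in the control mice and of 183, 190 and 162 in the SRF mice. Scaled to library size these were 4.99, 4.07 and 7.34 CPM in control and 9.89, 10.6 and 9.07 CPM in SRF, where 3 counts were worth 0.123 to 0.22 CPM. All 3 SRF libraries lay above all 3 control libraries, and the SRF mice lay close together, at 9.85 ± 0.754 CPM against 5.47 ± 1.69 CPM in control (SD, n = 3 each). The log2 fold change of 0.85 (standard error 0.27) was the largest of the 9 genes, with an edgeR adjusted p of 0.527 and 0.302 with DESeq2. It was not past 0.05 unadjusted without control mouse 2 (0.67) or without SRF mouse 2 (0.79). Scp2, whose span overlaps Podn, had the opposite sign, with a log2 fold change of -0.26, and lay at 416 to 481 CPM in control and 342 to 413 CPM in SRF.

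On the FPKM scale the exact permutation test, two-sided, gave p = 0.1 for Bgn and Podn, the smallest value possible with 3 mice against 3, and p between 0.2 and 0.6 for the other 7 genes. Groups that do not overlap on this scale were found in the higher direction in 8.76% of tested genes. Relative to Dcn in the same library, Podn FPKM was 0.113%, 0.0766% and 0.0670% in control and 0.160%, 0.136% and 0.0723% in SRF, and Bgn FPKM was 12.7%, 11.7% and 7.95% in control and 15.0%, 14.6% and 7.39% in SRF. Both ratios overlapped between groups, and SRF mouse 3, with the highest Dcn level, had ratios in the range of the control mice or below it.

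**Figure D2:**
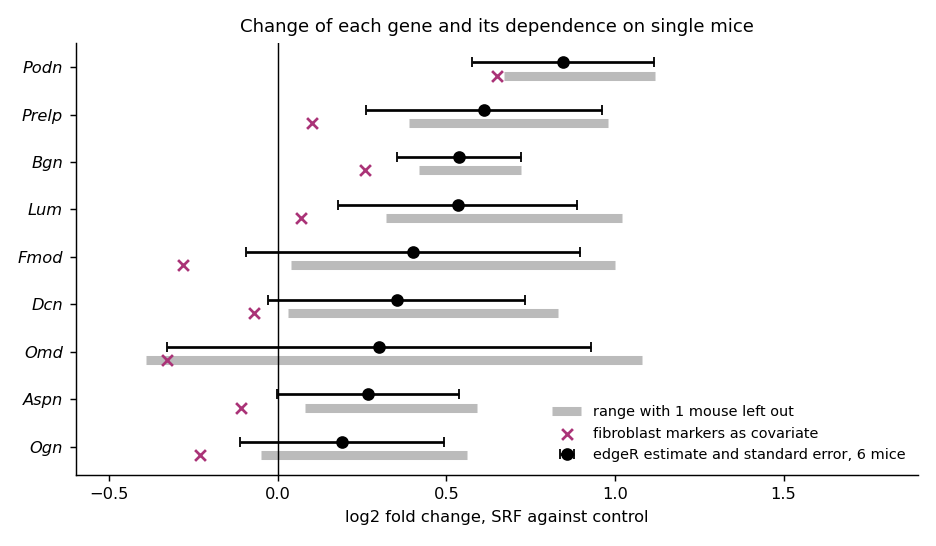
Log2 fold change of SRF against control for each gene. Black points and bars are the edgeR estimate and its standard error over 6 mice, grey bars span the estimates with 1 mouse left out, and crosses are estimates with the fibroblast marker level as a covariate. Bgn, Podn, Lum and Prelp stay above 0 in all 3, while Dcn, Fmod, Ogn, Aspn and Omd have a cross below 0. The fibroblast covariate itself tended to be higher in SRF.

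The libraries of a group differed from each other in the same way for most members. Control mouse 1 was the lowest and control mouse 3 the highest control library for 8 of the 9 genes, and SRF mouse 1 was the lowest and SRF mouse 3 the highest SRF library for 7. Both held for 7 of 9 genes (77.8%), against 958 of 13454 tested genes (7.12%). Dcn, Lum, Fmod, Ogn, Prelp, Aspn and Omd therefore shared a profile, and Bgn and Podn did not follow it in the SRF mice. Over the 6 libraries the 21 pairs among these 7 genes had Pearson r of 0.86 to 0.99 on the log2 CPM scale (median 0.95). The 5 pairs that are genome neighbours had a median r of 0.95 and the 16 pairs on different chromosomes 0.96. Bgn had r of 0.49 to 0.83 with the 7 genes, Podn 0.40 to 0.79, and Bgn and Podn had r = 0.93 with each other. These correlations describe 6 libraries that share the group difference and their own tissue make-up, and were not tested.

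**Figure D3:**
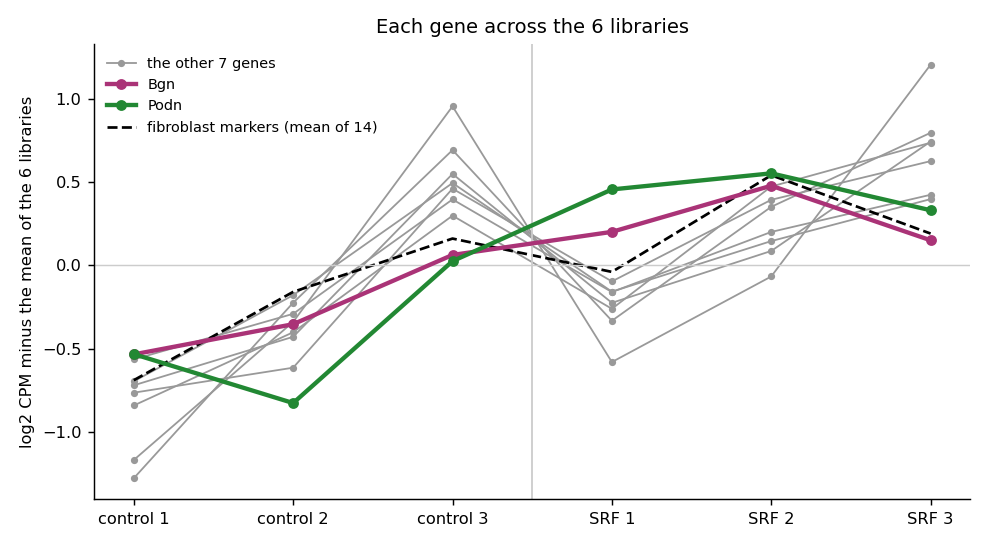
Log2 CPM of each gene in each of the 6 libraries, as the difference from that gene's mean. The lines only join the points of a gene, since mice have no order. The 7 grey genes are high in control mouse 3 and SRF mouse 3, Bgn and Podn are higher in every SRF mouse than in every control mouse, and the dashed line is the mean of the 14 tested fibroblast markers.

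Markers of connective tissue varied between the libraries, in part like the members. The 15 fibroblast markers were listed in all 6 libraries, and their summed level was 1963 to 4290 CPM in control and 3455 to 5299 CPM in SRF. Of the 14 tested, 13 had an estimate above 0 and 1 below, with a median log2 fold change of 0.48. An unadjusted p under 0.05 in the higher direction was found for 4 of the 14, against 4.16% of tested genes. Every SRF library lay above every control library for 4 of the 14, against 6.71% of tested genes. Their mean log2 CPM was lowest in control mouse 1 (5.80), as for most members, but highest in SRF mouse 2 (7.03). The 5 tendon markers summed to 200 to 456 CPM in control and 300 to 600.2 CPM in SRF, highest in the mice numbered 3 of each group. Scx was too low to be tested, and the 4 tested had estimates above 0 (median 0.49). The cartilage-like scleral markers (7 of 8 listed, Snorc not) summed to 138 to 529 CPM and 290 to 567 CPM, with the same highest mice. Acan, Matn3 and Hapln1 were too low to be tested, and of the 4 tested 3 had an estimate above 0 and 1 below (median 0.50). Most of the sum came from Chad, of the leucine-rich family, and Comp, also a tendon marker. They were at 365 and 117 CPM in control mouse 3 and at 378 and 144 CPM in SRF mouse 3. The 3 corneal stroma markers summed to 75.9 to 763 CPM and 254 to 519 CPM, highest in the same mice, with 2 estimates above 0 and 1 below (median 0.07). Other tissues differed too. The 11 skeletal muscle markers, 11 of 11 with an estimate above 0 (median 0.42), summed to 1761 to 2909 CPM in control and 1126 to 4005 CPM in SRF, lowest in SRF mouse 3. The 7 ocular surface epithelium markers, 7 of 7 with an estimate below 0 (median -0.37), summed to 211 CPM in control mouse 1 and 2333 CPM in control mouse 3, and to 618 to 1164 CPM in SRF, lowest in SRF mouse 3. No listed marker was at 0 in any library. With the fibroblast marker level as a covariate, the median log2 fold change of the members was -0.07, that of Bgn 0.26 and that of Podn 0.65, and 0 of 9 had an unadjusted p under 0.05. This covariate itself tended to be higher in SRF, so the fit cannot separate it from the group difference. The summed level of the 10 RPE markers was 44590 to 53030 CPM in control and 29810 to 39690 CPM in SRF. Of the 10, 4 had an unadjusted p under 0.05 in the lower direction, against 2.85% of tested genes. The part of these tissues in the member levels was not tested. With the photoreceptor marker level as a covariate, Bgn (0.53) and Podn (0.83) were still past 0.05 unadjusted and the median was 0.46.

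The genes whose log2 CPM was most like the mean of the 9 members over the 6 libraries were Sec24d, Serpinf1, Thbs2, Comp and Myoc, with Pearson r of 0.995 to 0.998. Thbs2 is one of the fibroblast markers, and Comp stands in the tendon and cartilage-like lists. The closest gene to each member was Angptl7 for Dcn, Tmem44 for Bgn, Mfsd1 for Lum, Smoc2 for Fmod, Dpep1 for Ogn, Selenop for Prelp, Thbs2 for Aspn, Dazap2 for Omd and Gpr183 for Podn. These r values were 0.985 for Podn and at least 0.993 for the others. All of these genes were picked as the highest among the 13454 tested genes, leaving out the members. With only 6 libraries, high r can arise from such picking alone, and the likeness was not tested. Angptl7, one of the corneal stroma markers, was at 19.7, 31.7 and 295 CPM in control and at 40.7, 114 and 370 CPM in SRF.

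Of 9 further genes of the leucine-rich family, 8 were listed (Podnl1 was not) and 7 were tested (Nyx, known from retinal bipolar cells, was too low). Of the 7, 0 were called by edgeR or DESeq2, 0 had an unadjusted p under 0.05 and 0 had groups that did not overlap. Their median log2 fold change was 0.34. Keratocan (Kera), a corneal stroma proteoglycan and a neighbour of Lum, was at 5.96, 16.1 and 32.4 CPM in control and at 15.5, 18.04 and 24.03 CPM in SRF, and control mouse 3 was again the highest control library. Chondroadherin (Chad), a cartilage matrix protein, was the most abundant of these genes per length (39.3 to 227 FPKM), at 67.2, 133 and 365 CPM in control and 192, 305 and 378 CPM in SRF (log2 fold change 0.63, standard error 0.58). Chadl, related to Chad, was at 9.75, 9.60 and 6.22 CPM in control and at 15.5, 13.98 and 9.63 CPM in SRF. Only 1 SRF library lay within its control range, and the log2 fold change was 0.61 with a standard error of 0.27 (edgeR adjusted p = 0.737). Its exons overlap those of L3mbtl2 on the opposite strand, which was at 18.9 to 33.0 CPM with a log2 fold change of 0.19. Ecm2, next to Aspn, had a log2 fold change of 0.38, opticin (Optc), a vitreous protein encoded next to Prelp, 0.34, epiphycan (Epyc) 0.27 and tsukushi (Tsku) 0.26.

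Of the 14 collagen genes of the fibrils and microfibrils that the family binds, 0 were called by edgeR. All 14 estimates were above 0, with a median log2 fold change of 0.50, and 3 had an unadjusted p under 0.05 and groups that did not overlap. Over all tested genes these shares were 4.16% and 6.71% in the higher direction, and they are the background for the gene lists that follow. Col3a1, a fibrillar collagen prominent in early repair, was at 253, 319 and 279.8 CPM in control and at 413, 577 and 341 CPM in SRF (log2 fold change 0.64, standard error 0.21). Its SRF libraries all lay above its control libraries. The others were Col5a2, which takes part in starting fibrils (0.55, standard error 0.18), and Col14a1, a fibril-associated collagen (0.47, standard error 0.18). Col3a1 is also in the fibroblast list.

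The enzymes that build the sugar chains had list medians of 0.07 to 0.26. Of 7 genes for the linker between core protein and chain, 1 had an unadjusted p under 0.05 and groups apart, Xylt2, a xylosyltransferase that starts the chain (log2 fold change 0.28, standard error 0.11), and the median was 0.26. Of 15 tested genes for chondroitin and dermatan sulfate, 10 estimates were above 0 and 5 below, with a median of 0.09. The 3 past 0.05 unadjusted were Chpf2 and Chpf, chondroitin polymerising factors, and Chst14, a sulfotransferase of dermatan sulfate. Chpf2 was at 25.98, 24.3 and 27.9 CPM in control and at 38.3, 39.1 and 34.1 CPM in SRF, with groups apart and an edgeR adjusted p of 0.355. Its exons overlap those of Smarcd3 on the opposite strand, which was at 8.89 to 16.4 CPM in control and 34.9 to 42.5 CPM in SRF, so the Chpf2 counts are uncertain. Chpf had a log2 fold change of 0.41 and Chst14 of 0.37, each with a standard error of 0.15. Of 7 genes for keratan sulfate, 4 estimates were above 0 and 3 below, with a median of 0.07. The lowest was that of Chst5, a sulfotransferase, singled out after its values were seen, at 0.521, 3.20 and 7.13 CPM in control and 1.46, 1.95 and 0.616 CPM in SRF (-1.44, standard error 0.87), with groups that overlapped. In the other direction, B3gnt7 (0.98, standard error 0.36, at 1.25 to 3.56 CPM) and Chst1 (0.58, standard error 0.24) were past 0.05 unadjusted with groups apart. None of these enzyme genes was called by edgeR or DESeq2.

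Proteases known to process or cut the family had the highest median of the partner gene lists, 0.55 over 8 tested genes, of which 7 estimates were above 0. Mmp14, a membrane-bound matrix metalloproteinase, was at 93.9, 115 and 132 CPM in control and at 164, 209.9 and 165 CPM in SRF (log2 fold change 0.66, standard error 0.17). It was called by DESeq2 on the tested genes (adjusted p = 0.0498), but neither by DESeq2 fitted on every gene listed nor by edgeR (adjusted p = 0.410). Htra1, a secreted serine protease, was at 63.6, 101 and 122.8 CPM in control and at 158, 183 and 172 CPM in SRF (0.84, standard error 0.23, edgeR adjusted p = 0.422). Bmp1, which removes the propeptide of decorin and biglycan, was at 28.3, 32.3 and 24.4 CPM in control and at 44.4, 51.3 and 33.2 CPM in SRF (0.60, standard error 0.19, edgeR adjusted p = 0.529). In all 3 the SRF libraries lay above the control libraries, which held for 4 of the 8 tested genes.

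Of 7 tested growth factors and matricellular proteins bound by the family (median 0.25), 1 had an unadjusted p under 0.05. Groups were apart for 1 in the higher and 1 in the lower direction. Bmp4, a bone morphogenetic protein, was at 179.6, 231 and 180.6 CPM in control and at 167, 141 and 103 CPM in SRF, so that every SRF library lay below the control libraries (log2 fold change -0.53, standard error 0.20, edgeR adjusted p = 0.649). In the lower direction 2.85% of tested genes had an unadjusted p under 0.05 and 6.43% had groups apart. Of 16 receptors reported for the family (median 0.19), 3 had every SRF library above the control libraries and 1 was past 0.05 unadjusted. This was P2rx4, an ATP-gated channel reported with biglycan, at 25.7, 28.4 and 29.7 CPM in control and 34.1, 53.1 and 42.8 CPM in SRF (0.63, standard error 0.18, edgeR adjusted p = 0.425). For comparison, 8 of 12 macrophage markers had an unadjusted p under 0.05 in the higher direction, against 4.16% of tested genes. DESeq2 called 5 of the 12, and the summed level of the 12 was 1389 to 1814 CPM in control and 3228 to 4670 CPM in SRF.

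**Figure D4:**
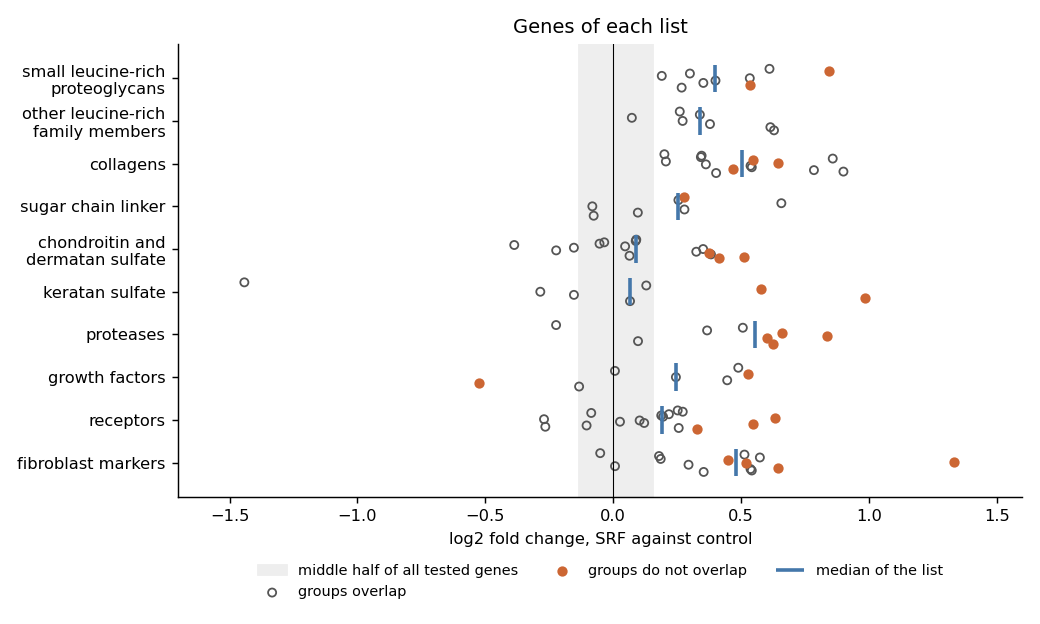
Log2 fold change of every tested gene in each list, with filled points where the 3 SRF and 3 control libraries do not overlap, and a bar for the list's median. The grey band spans the quartiles of all tested genes. The medians of the members (0.40), collagens (0.50) and proteases (0.55) lie to the right of those of the chondroitin and dermatan sulfate (0.09) and keratan sulfate enzymes (0.07).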

How the data were processed

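RNA-seq of RPE-choroid from 3 control and 3 SRF mice was analysed, with groups and mouse numbers taken from the sample labels. The authors filtered reads with FASTP and counted reads per gene with StringTie, and these deposited counts are raw whole numbers. The deposited FPKM values were scaled by the authors to transcript length and mapped reads. The aligner, genome build, annotation and strandedness are not given in the sources used here, and GENCODE M21 (GRCm38) was used because it held 15659 of the 15663 identifiers.

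Counts were tested with edgeR 4.0.16 in R 4.3.3 (TMM, estimateDisp, glmQLFit and glmQLFTest, group as the only term) on the 13454 genes whose count exceeded 50 in 2 or more libraries, with Benjamini-Hochberg adjustment over all of them. Calls needed an adjusted p under 0.05 and a log2 change of 0.5 or more in either direction. CPM values are TMM-normalized. The standard errors given with edgeR estimates were derived as the absolute log2 fold change divided by the square root of the test's F statistic. The tests were first checked on simulated counts. As alternatives, the test was replaced by DESeq2 1.42.0 or by limma 3.58.1 (voom, or FPKM on a log2 scale with a pseudocount of 0.1 or 1), normalization and filter were changed, covariates or a replicate block were added, and each mouse was left out in turn. Exact permutation tests were run with scipy 1.17.1.

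The members, gene lists and markers were chosen with earlier results of these data known, so no list was tested. Genes named were the 9 members, the tested family members, up to 4 genes of each other list by smallest p among those past 0.05 unadjusted with groups apart, the genes most like the members, and overlapping or neighbouring genes.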

Additional observations from a re-analysis of the deposited data

How the results depend on the processing

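In each of the 21 alternative settings 0 of 9 members were called, and the smallest adjusted p of a member was 0.233 (DESeq2, Bgn). Bgn (0.26 to 0.78), Podn (0.65 to 1.17), Lum (0.07 to 1.02) and Prelp (0.10 to 0.98) had estimates above 0 in 21 of 21 of them. With the fibroblast marker level as a covariate the signs of Dcn (-0.07), Fmod (-0.28), Ogn (-0.23), Aspn (-0.11) and Omd (-0.33) reversed, and the median of the members was -0.07. Of the 14 tested genes in this covariate, 13 had an estimate above 0 themselves, so it cannot be separated from the group difference. With 1 mouse left out the median of the members was between 0.12 (without control mouse 1) and 0.98 (without control mouse 3), Ogn between -0.05 and 0.56 and Omd between -0.39 and 1.08, and the number of members with an unadjusted p under 0.05 was 0 to 6. Without both mice numbered 3, a setting chosen after seeing the data, the median was 0.70. The causes were not tested.

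Over all genes edgeR called 0. DESeq2 called 153 on the same genes. Fitted on every gene listed, it called 153 of the same 13454 genes. 1 gene was called with limma-voom, with edgeR's newer form of the fit, with library size only, with filterByExpr, without a filter and with the photoreceptor covariate, and 2 with each of the 3 limma fits on FPKM, and 0 to 5 were called with 1 mouse left out. In the lists of genes around the members DESeq2 on the same genes called 1, Mmp14, and DESeq2 on every gene listed called 0. The replicate block, which pairs mice by their number, gave a median of 0.54 for the members with 0 of 9 called and 7 of 9 at an unadjusted p under 0.05, against 2 of 9 without it. The numbers mark different animals. Over all tested genes, the deviations of same-numbered mice from their group means had r of -0.48, 0.47 and -0.31. Between mice of different number r lay between -0.69 and 0.62. Deviations within a group of 3 mice are not independent of each other, so these values cannot decide whether the libraries pair. The median standard error was 0.188 (log2) over all tested genes and 0.18 to 0.63 for the members. The edgeR unadjusted p was 0.0223 for Bgn and 0.0167 for Podn, with adjusted p of 0.573 and 0.527, and neither was called. In the same direction 560 of 13454 tested genes had an unadjusted p under 0.05.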
